A study of Mus musculus with 8 samples.

Results

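The regions described here are promoter sites at which a PU.1 peak was called in a line supplied with wild-type PU.1 but not in its empty-vector control line, and at which no CEBPA peak was called. Of 15683 PU.1 peaks in the line carrying inducible PU.1, 12714 overlapped no PU.1 peak of the empty-vector control line by 1 bp or more. Of these, 1091 had their centre within 1000 bp of a protein-coding transcript start, and 280 of the 1091 overlapped a CEBPA peak (31 in the control line only, 71 in the PU.1 line only and 178 in both). The other 811 regions are the new promoter peaks without CEBPA, which were 5.17% of all PU.1 peaks of the line. They were selected on the PU.1 and CEBPA peak calls and on their distance from a start, so those properties are given as descriptions.

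All cells were X18.1.1, a mouse line derived from a radiation-induced acute myeloid leukaemia (AML), which has lost 1 copy of Pu.1 and whose remaining copy has an amino-acid substitution where the protein binds DNA and lacks sequence of the PEST domain. The control line was transduced with empty retroviral vector (EV) and the other with PuER, in which wild-type PU.1 is joined to a modified oestrogen receptor domain that responds to 4-hydroxytamoxifen (OHT). Each was a single clone, both were kept in 100 nM OHT for 2 h, and both retained the mutant PU.1, so EV peaks are those called while only mutant PU.1 was present. There was 1 PU.1 library and 1 CEBPA library for each clone, so differences between the clones have no replicate check, and a difference between clones cannot be told apart from an effect of the fusion protein. H3K27Ac and IgG libraries of the same design were not analysed here.

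PU.1 is a member of the ETS family of transcription factors and is required for the development of macrophages, granulocytes and B cells. Like other ETS proteins it contacts a GGAA core, but it prefers purines ahead of the core, whereas ETS1 and its relatives accept C there. It can also bind a composite element next to IRF4 or IRF8, in which a GGAA core is followed by a GAAA core for the IRF protein. CEBPA is a leucine-zipper factor of granulocyte and monocyte precursors that is often found close to PU.1 on DNA. Many mammalian promoters lie in CpG islands, stretches rich in G, C and unmethylated CpG, and these are typical of genes active in every cell type, while promoters of lineage-restricted genes more often lack them.

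The 4 ETS-related motifs used below were searched on both strands of the central 80 bp of the 400-bp peaks. An ETS site is GGAAGT, a PU.1-type site is GAGGAAGT, and an ETS1-type site is CAGGAAGT or CCGGAAGT, so the last pair are subsets of the first. The ETS-IRF element is GGAA and GAAA separated by 2 bases, and it can overlap an ETS site. The central 80 bp of 7 new peaks upstream of named genes are shown first. They were chosen for holding an ETS site there and for overlapping no annotated exon. An ETS site lay in the central 80 bp of 45.1% of all new promoter peaks, so these 7 do not stand for the class. The 7 sequences are read along the strand of the gene from GRCm38 (mm10), and capitals mark GGAAGT or its complement ACTTCC. C1qa encodes a chain of the complement component C1q (chr4:136898812-136898891, minus strand, 49 bp upstream of its start). Psap encodes the precursor of the lysosomal saposins (chr10:60284376-60284455, plus strand, 45 bp upstream of an internal start, in an intron). Cebpe encodes the CEBP protein of late granulocyte maturation (chr14:54713058-54713137, minus strand, 924 bp upstream). Igf1 encodes insulin-like growth factor 1 (chr10:87857384-87857463, plus strand, 841 bp upstream). Cd28 encodes a T-cell costimulatory receptor (chr1:60745779-60745858, plus strand, 539 bp upstream of an internal start). Dennd4b (chr3:90264883-90264962, plus strand, 262 bp upstream) and Fbxl17 (chr17:63500632-63500711, minus strand, 655 bp upstream) were the genes with most new peaks at their starts.
C1qa: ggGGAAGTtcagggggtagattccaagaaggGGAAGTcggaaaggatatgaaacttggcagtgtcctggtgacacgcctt
Psap: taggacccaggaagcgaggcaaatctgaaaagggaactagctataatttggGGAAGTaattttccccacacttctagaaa
Cebpe: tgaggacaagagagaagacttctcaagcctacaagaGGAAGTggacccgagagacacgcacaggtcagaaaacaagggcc
Igf1: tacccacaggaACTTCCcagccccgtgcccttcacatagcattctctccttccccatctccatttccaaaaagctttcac
Cd28: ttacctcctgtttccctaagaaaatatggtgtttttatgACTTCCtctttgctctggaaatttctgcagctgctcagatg
Dennd4b: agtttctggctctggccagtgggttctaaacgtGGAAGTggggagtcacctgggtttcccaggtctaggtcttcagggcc
Fbxl17: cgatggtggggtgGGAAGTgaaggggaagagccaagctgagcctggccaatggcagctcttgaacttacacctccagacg

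Windows of 30 bases around the PU.1-type site of other named genes are shown because in several of them the site lay almost at the start. They were chosen after their values were seen, are read on the strand of the site, and have GAGGAAGT in capitals. The site centre was 17 bp upstream of the start of Mpo, which encodes myeloperoxidase (chr11:87793549-87793578). It was 17 bp upstream of an internal start of Nfkb1, which encodes the p105 and p50 subunits of NF-kappaB (chr3:135608272-135608301). It lay 3 bp downstream of the start of Cd300lf, an inhibitory receptor of myeloid cells (chr11:115133974-115134003), and 14 bp downstream in Tlr9, the endosomal sensor of CpG DNA (chr9:106222597-106222626). In Adgre4, an adhesion receptor of macrophages, it lay 45 bp downstream (chr17:55750014-55750043), and in Apaf1, the scaffold of the apoptosome, 403 bp downstream of an alternative start (chr10:91082011-91082040).
Mpo: gtggagagagaGAGGAAGTtgcctttgtcc
Nfkb1: atacagacaaaGAGGAAGTgcaaaggaaac
Cd300lf: agtggctaaagGAGGAAGTgccgagtgaga
Tlr9: ctcagagaattGAGGAAGTgacactttcac
Adgre4: cagcaatgaagGAGGAAGTgcaccactgct
Apaf1: aattatctaagGAGGAAGTagaccactatt

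The ETS-IRF element was found in new peaks of 8 named genes. It lay beside the PU.1-type site in Nfkb1 and Apaf1, and the windows of the other 6 are shown in the same way with the matched element in capitals. Fcgr2b encodes the inhibitory receptor for IgG (chr1:170976087-170976116), Cybb the catalytic subunit of the phagocyte NADPH oxidase (chrX:9469302-9469331), and Lmo2 a bridging protein of haematopoietic transcription complexes (chr2:103970107-103970136). Cgas encodes the cytosolic DNA sensor (chr9:78443148-78443177), Ciita the transactivator of MHC class II genes (chr16:10488065-10488094), and Bbc3 the pro-apoptotic protein PUMA (chr7:16308611-16308640). In Fcgr2b the 2 bases between the cores complete a GGAAGT site, and in Bbc3 the whole match is made of purines.
Fcgr2b: gtccaaatggGGAAGTGAAAagaaacggtc
Cybb: cttctgatgaGGAAATGAAAacagcagctt
Lmo2: tcaggaaaaaGGAAATGAAAccagagacag
Cgas: agtggccgctGGAAATGAAActtaaatata
Ciita: cccacaagaaGGAACTGAAAttaacataag
Bbc3: gtttcaaaagGGAAGGGAAAtaaatgactt

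ETS sites were frequent in the new promoter peaks. In all, 366 of the 811 (45.1%, exact 95% interval 41.7 to 48.6) held one in the central 80 bp, while 5.01% of 80-bp windows laid over the promoters of all protein-coding genes did. PU.1-type sites were present in 134 (16.5%, 14 to 19.3) and in 0.479% of promoter windows, and ETS1-type sites in 43 (5.3%, 3.86 to 7.08) and 0.906%. The shorter core GGAA was found in 762 (94%) of the peaks, against 92.3% of new peaks away from promoters and 80.1% of promoter peaks called in the EV line only. Its share in promoter windows was not counted, and so short a core is common in any sequence. These intervals, like all others given here, cover counting error over the peaks of 1 library only. Reads, peak heights and caller scores are not part of the lists used, so the depth behind each peak is unknown.

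To ask whether these sequences were particular to the new promoter peaks, the same shares were taken in 3 other classes of PU.1 peak without CEBPA: 8671 new peaks away from promoters, 239 promoter peaks shared by both lines, and 547 promoter peaks called in the EV line only. A difference is described as larger than counting error where the Newcombe 95% interval of the difference of shares excludes 0. Compared with new peaks away from promoters, the new promoter peaks had ETS sites at a share that differed by -0.528 points (-4.08 to 3.07) and PU.1-type sites at a share that differed by -0.811 points (-3.34 to 2.01), and both intervals include 0. Against the promoter peaks of the EV line only, the ETS share was 9.11 points higher (3.79 to 14.3), since 36% of those peaks held a site. The 2 flanking bases separated these classes further. PU.1-type sites were present in 4.75% of EV-only promoter peaks, 11.8 points fewer than in the new ones (8.57 to 14.9), and ETS1-type sites in 11.5%, 6.22 points more (the new minus EV-only difference was -6.22, -9.45 to -3.23). The shared promoter peaks had PU.1-type sites in 18%, and the new minus shared difference of -1.47 points (-7.34 to 3.66) allows a difference in either direction. Their ETS1-type share was 11.7%, above that of the new peaks (new minus shared -6.41, -11.3 to -2.51). Their ETS share was the highest of the 4 classes at 54.4% (new minus shared -9.26, -16.3 to -2.06). With a different core, GGAA followed by A or T in place of G, the sign of that difference turned (6.11, -0.98 to 12.8). That core was in 41.7% of new and 35.6% of shared promoter peaks. It was also in 32.3% of promoter windows, so its shares stood near its background, unlike those of GGAAGT.

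**Figure D1:**
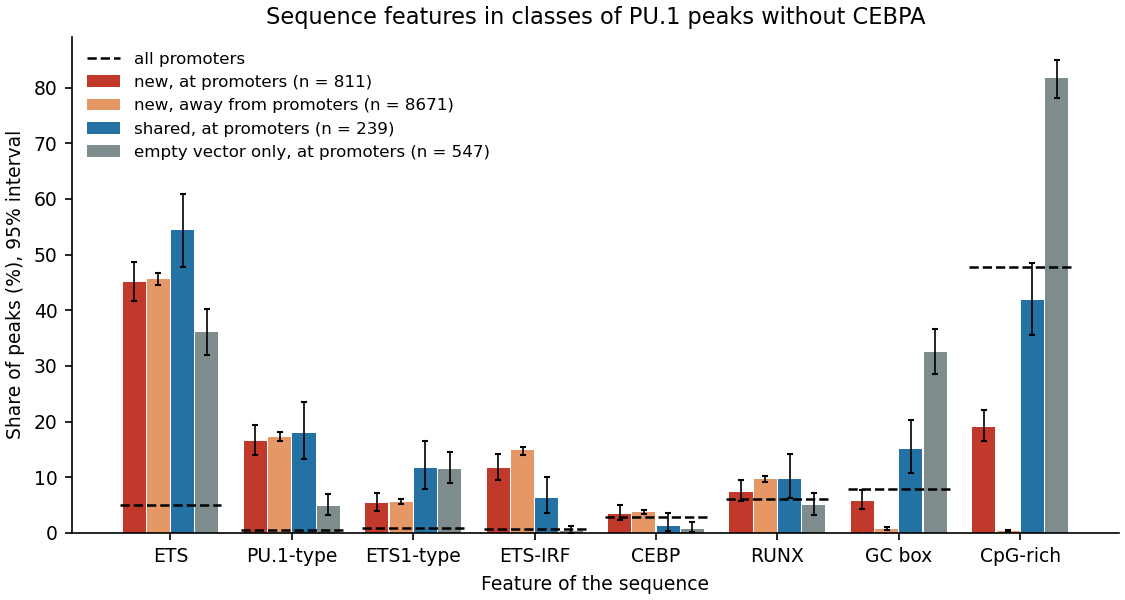
Share of peaks (%) with each motif in the central 80 bp, or with a CpG-rich 400-bp sequence, in 4 classes of PU.1 peak without CEBPA. Bars are shares, error bars exact 95% intervals, and dashed lines the share in all promoters (80-bp windows, or for CpG-rich the 400 bp centred on gene starts). The PU.1-type bar of the new promoter peaks stands near that of new peaks away from promoters, the ETS-IRF bar is lower (11.7% against 14.8%), and the CpG-rich bar is far below that of the EV-only promoter peaks.

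The bases before the site were then counted without a chosen motif. Of the ETS sites in new promoter peaks, 33% were preceded by GA, 16% by GG, 12.9% by AG, 10.5% by AA and 9.33% by CA. In the EV-only promoter peaks the order was different, with GC first, then CC at 16.7%, CA at 13% and GA at 12.6%, while GG made up 0.93% and AG 1.4%. Sites in shared promoter peaks were led by GA (29.3%) and GC (16.3%), with GG at 4.76% and AG at 0.68%. The new peaks away from promoters had GA at 34.4%, AA at 13.2%, AG at 13% and GG at 12.5%. Purine pairs before the core thus took a large part of the sites in both classes of new peak, and GG and AG were uncommon in both classes of promoter peak that the EV line had.

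ETS-IRF elements were present in 95 new promoter peaks (11.7%, 9.58 to 14.1) and in 0.735% of promoter windows. Only 2 of 547 EV-only promoter peaks held one (0.366%), so that the new peaks were 11.3 points higher (9.1 to 13.8), and they were also 5.44 points above the shared promoter peaks (6.28%, 1.11 to 8.85). New peaks away from promoters had more of them (14.8%, new promoter minus away -3.04, -5.21 to -0.532). Among the 96 matches in new promoter peaks, the 2 bases between the cores were GT in 25%, CT in 19.8% and GA in 16.7%, and in 26% both were purines, which also occurs in purine repeats. A run of 20 or more purines or pyrimidines lay in the central 80 bp of 37 new promoter peaks (4.56%) and of 4 EV-only ones (0.731%), and without such peaks the ETS-IRF shares were 11.2% and 0.368% (difference 10.9, 8.62 to 13.3).

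**Figure D2:**
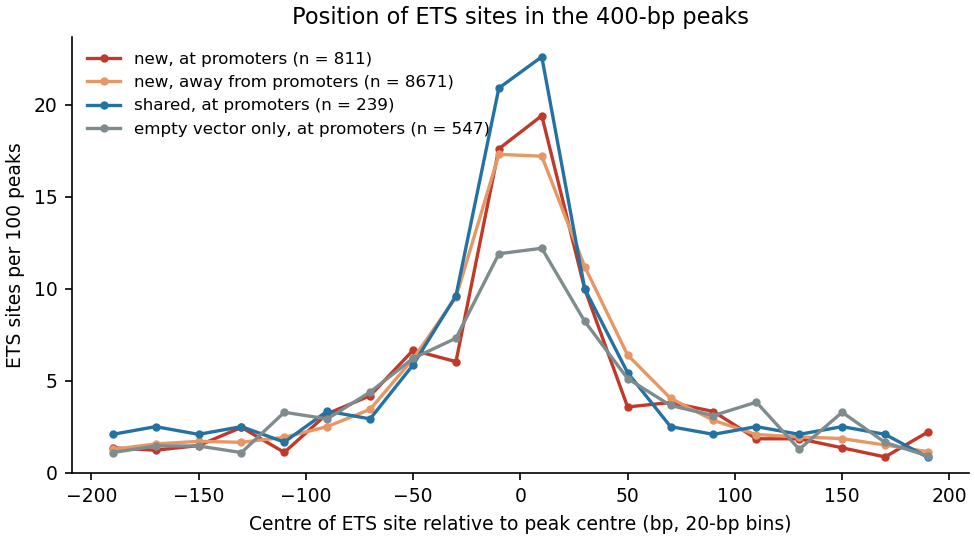
ETS sites per 100 peaks (y axis) by distance of the site centre from the peak centre in bp (x axis, 20-bp bins) for the 4 classes. The new promoter peaks reach 17.6 and 19.4 sites per 100 peaks in the central bins and fall to low levels towards the edges, as do the other classes.

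Sites were concentrated at peak centres, as the plot of site position shows. A site lay anywhere in the 400 bp of 526 new promoter peaks (64.9%), and 49 held 2 or more in the central 80 bp. Of the 317 peaks with a single central site, 171 had it on the same strand as the gene (53.9%, 48.3 to 59.5), an interval that includes an even split. No ETS site was found in 285 peaks, and 262 of these (91.9%) had a GGAA core in the central 80 bp. The share of promoter windows with GGAA was not counted. The longer cores GGAAA or GGAAT alone were in 32.3% of those windows, so a GGAA match by itself does not mark a bound site. These 285 peaks were compared with the 366 that had a central site. The ETS-IRF share was 15.1% against 10.1% (difference 4.98 points, -0.117 to 10.3, which includes 0), and 39.6% against 42.9% lay within 250 bp of a start. Purine runs were more frequent without a site, at 8.07% against 1.37% (6.7 points, 3.52 to 10.5), although a run of purines holds no T and so no complete site.

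Motifs of other promoter-binding and myeloid factors stood nearer to their share in promoters generally. RUNX motifs (TGTGGT or TGCGGT) were in 7.4% of the new promoter peaks and 6.16% of promoter windows, CEBP motifs (TTGCNNAA) in 3.45% and 2.87%, and E-boxes (CANNTG) in 24.3% and 29.6%. The GC box (GGGCGG), the element of SP1-type factors, was in 5.8% of new peaks, 7.92% of promoter windows and 32.5% of EV-only promoter peaks. NFY motifs (CCAAT) were in 6.41% against 10% of windows, and the TATA motif (TATAAA) in 1.48% against 4.25%. The absence of CEBPA peaks chose the members, so the CEBP share has no test against peaks with CEBPA.

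The new promoter peaks mostly lay outside CpG-rich DNA. A peak was called CpG-rich when its 400 bp had at least 50% GC and an observed to expected CpG ratio of at least 0.6. This held for 155 of 811 (19.1%, 16.5 to 22), against 41.8% of shared and 81.7% of EV-only promoter peaks and 47.7% of the 400-bp windows centred on all gene starts. The new minus EV-only difference was -62.6 points (-66.6 to -58.1). New peaks lay farther from starts than the other promoter classes, and were not centred on starts as the 400-bp windows were. Among new peaks, 28% within 100 bp of a start were CpG-rich, 33.1% from there to 250 bp, 20.7% from there to 500 bp and 7.1% farther out. How much of the difference came from position was not tested. Median GC content was 51.2% in new, 57.8% in shared and 63.8% in EV-only promoter peaks, and the median CpG ratio was 0.323, 0.533 and 0.813. Away from promoters new peaks had a median GC of 44.8% and were CpG-rich in 0.334%. Base composition moved with the class, so the motif comparison was repeated within CpG-rich and other peaks, a split chosen after the values were seen. PU.1-type sites remained more frequent in new than in EV-only promoter peaks in both, at 12.3% against 4.47% among CpG-rich peaks (difference 7.78, 2.92 to 14.1) and 17.5% against 6% among the others (11.5, 4.51 to 16). The difference in all ETS sites was 8.72 points among CpG-rich peaks and 8.27 among the others, near the 9.11 points without the split. With fewer peaks in each part, both intervals included 0 (-0.133 to 17.7 and -2.21 to 17.9). The lower ETS1-type share of the new peaks was larger than counting error outside CpG-rich DNA (-6.12, -13.9 to -1) but not within it (-4.54, -9.06 to 1.27). The lower ETS share against shared promoter peaks was found in CpG-rich peaks (44.5% against 65%, difference -20.5, -32 to -7.96), while among the others it was 45.3% against 46.8% (-1.49, -10.6 to 7.47).

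Distance from a start was part of the selection, with the same 1000-bp limit in each promoter class, so it is described without a test. The median distance from the nearest protein-coding start was 359 bp for new peaks (interquartile range 92.5 to 695), against 99 bp for shared and 69 bp for EV-only promoter peaks. Within 250 bp lay 42.2% of new, 65.7% of shared and 82.1% of EV-only peaks. The 100 bp just upstream of the start held 16.9% of the new peaks, the fullest bin, and beyond 500 bp lay 40%, against 20.5% and 6.22% of the other classes. Upstream positions made up 53.6% of new peaks (50.1 to 57.1), 59% of shared and 58.7% of EV-only ones, and the differences of -5.36 (-12.3 to 1.83) and -5.05 points (-10.4 to 0.341) included 0. Among the new peaks, those that were CpG-rich more often lay near the start, with 65.8% within 250 bp against 36.6% of the others. The share with an ETS site was 46.3% within 100 bp of the start, 45.2% from there to 250 bp, 45.5% from there to 500 bp and 44.1% farther out, with overlapping intervals.

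**Figure D3:**
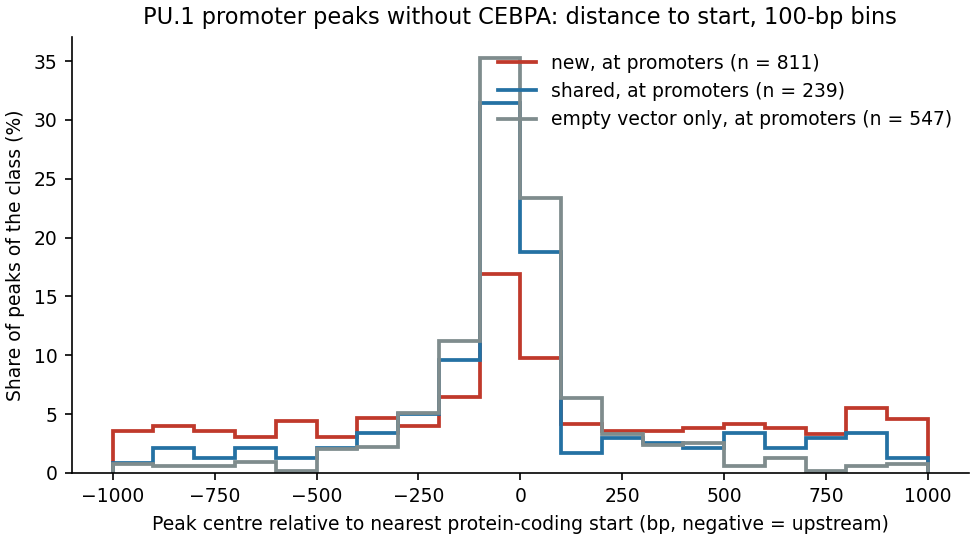
Share of peaks of each class (%) by signed distance of the peak centre from the nearest protein-coding start, in 100-bp bins, with negative values upstream. The curve of the 811 new promoter peaks has a lower summit, 16.9% just upstream of the start, and higher shoulders out to 1000 bp than the shared and EV-only curves.

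Many of the starts involved were internal ones. For 252 new peaks (31.1%) the nearest start lay over 1000 bp inside the gene, beyond its most 5′ end, compared with 19.2% of shared (difference 11.8 points, 5.54 to 17.4) and 11.9% of EV-only promoter peaks (19.2 points, 14.9 to 23.3). By the annotation at the peak centre, 44.8% of new peaks were in introns, 26.3% between genes, 17.9% in untranslated regions, 4.69% in coding sequence and 6.41% in other exons. At the edge of the definition, 66 new peaks lay in the outermost 100 bp of the promoter window, and 57 more that met every other criterion lay in the next 100 bp. The latter included the peak nearest Cd14, the lipopolysaccharide co-receptor, at 1055 bp.

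The 811 peaks lay at starts of 815 of 21951 protein-coding genes (3.71%). There were 775 genes with 1 peak, 38 with 2, and 2 with 3, and 43 peaks lay at starts of 2 or more genes, 31 of them at divergent pairs. Shared promoter peaks reached 1.16% of genes and EV-only promoter peaks 2.84%, and these 3 shares are the background for the gene lists that follow. The lists were drawn up with earlier results of these data known, so their counts are descriptions beside that background. They also overlap, with 35 of the 745 distinct genes on 2 or more lists. Genes with a new peak had 3.48 annotated protein-coding starts on average and all genes 2.48, so genes with more starts had more chances to be counted.

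**Figure D4:**
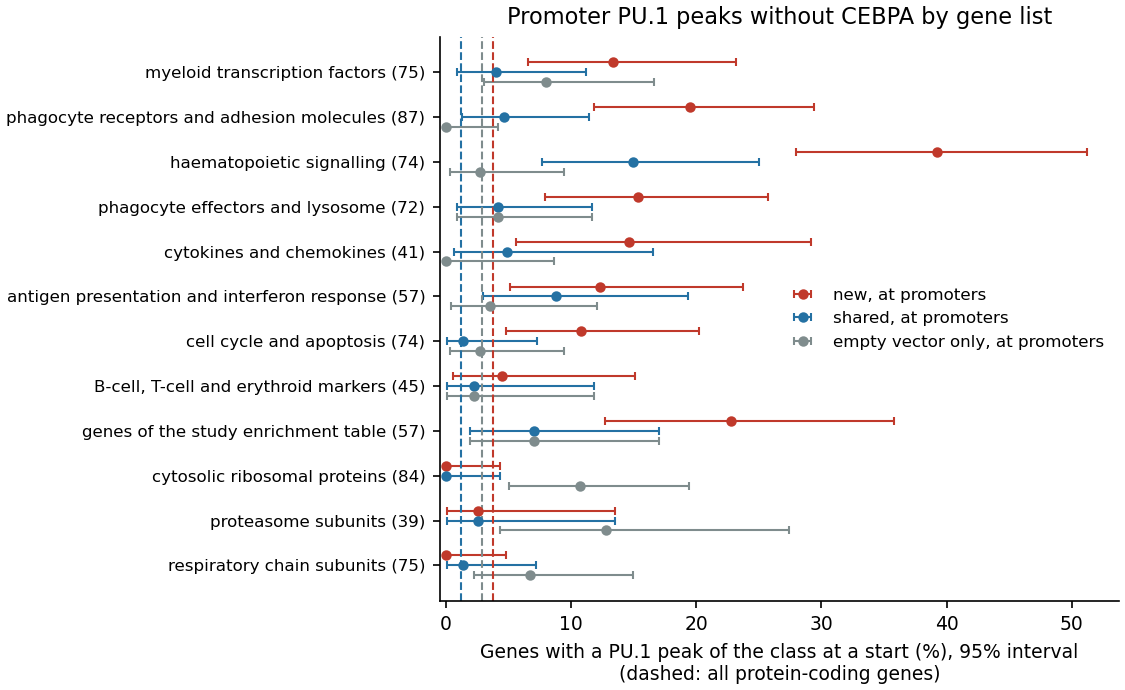
Share of the genes of each list (%, x axis, list size in parentheses) with a new, shared or EV-only promoter PU.1 peak without CEBPA, with exact 95% intervals. Dashed lines mark the shares over all protein-coding genes (3.71%, 1.16% and 2.84%). Haematopoietic signalling stands farthest right at 39.2%, and the ribosomal and respiratory lists have no new peak.

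Genes of haematopoietic signalling had new promoter peaks most often. Of 74 such genes, 29 had one (39.2%, 28 to 51.2), against 3.71% of all genes. Shared peaks were also frequent on this list relative to their own background, at 11 genes (14.9%, 7.66 to 25) against 1.16%, and EV-only peaks were at 2 genes (2.7%) against 2.84%. The list averaged 3.18 starts per gene. Btk, the tyrosine kinase of B cells and myeloid cells, had its peak centre 1 bp inside an alternative start, with no ETS site in the 400 bp. In Lyn, a Src-family kinase, the centre was 1 bp inside the start in a CpG-rich sequence with 2 ETS sites outside the central 80 bp. Was, the actin regulator lost in Wiskott-Aldrich syndrome, had its peak 2 bp inside the start, and Arhgap9, a GTPase-activating protein, 7 bp upstream of an internal start, and each had 2 central ETS sites of which at least 1 was ETS1-type. The other 25 genes included the kinases Syk, Csk, Jak2, Fes, Irak4 and Map4k1, the adaptors Blnk, Lcp2, Hcst, Dok2, Skap2, Sh3bp2 and Pik3ap1, the phosphatases Ptpn6, Ptpn22 and Inpp5d, the phosphoinositide 3-kinase subunits Pik3cd and Pik3r5, the cytokine signalling inhibitor Socs1, and Rac2 and other regulators of the cytoskeleton.

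Receptors and adhesion molecules of phagocytes followed, with 17 of 87 genes (19.5%, 11.8 to 29.4). Of these genes 4 had a shared peak (4.6%, background 1.16%) and none an EV-only peak. A count of 0 in 87 allows a share of up to 3.45% (3 counts) or 4.15% (exact limit). The peak of Cd300lf was centred on the start itself and held 2 central ETS sites, that of Adgre4 lay 18 bp inside, that of Fcgr2b 22 bp inside an alternative start and that of Tlr9 23 bp inside. Others on the list were the Fc receptor genes Fcgr1 and Fcer1g, the signalling adaptor Tyrobp and its partner Trem2, the C-type lectins Clec4a2, Clec4a3, Clec4n and Clec5a, the fractalkine receptor Cx3cr1, which had 2 new peaks, and Cd33, Cd52, Itga4 and Selplg.

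Effector and lysosomal genes had a new peak in 11 of 72 (15.3%, 7.88 to 25.7), against 3.71% of all genes. A shared peak lay at 3 (4.17%, 0.868 to 11.7, background 1.16%) and an EV-only peak at 3 (4.17%, 0.868 to 11.7, background 2.84%). Both of these intervals include their background. The peak of Cybb was 19 bp inside an internal start, that of Mpo 29 bp upstream, and those of Psap and C1qa at the positions shown with their sequences. Others on the list were Cfp, which encodes properdin, Slc11a1, the phagosomal metal transporter, and Ptgs1, Asah1, Lamp2 and Atp6v1b2. Of 41 cytokine and chemokine genes, 2 had a shared peak (4.88%), 0 an EV-only peak and 6 a new peak (14.6%, 5.57 to 29.2). The new peak lay 14 bp upstream of the start in Ccl6 and 71 bp inside in Il18. In Tnf it was 843 bp inside the gene, in an intron, and in Igf1 841 bp upstream. Cxcl9 and Pf4 were the other genes with one. Genes of antigen presentation and the interferon response had new peaks in 7 of 57 (12.3%, 5.08 to 23.7), against 3.71% of all genes. Shared peaks lay at 5 (8.77%, 2.91 to 19.3), against 1.16%, and EV-only peaks at 2 (3.51%), against 2.84%. Ciita had 2 new peaks, 11 bp inside its most 5′ start and 173 bp upstream of an internal one, and only the second held an ETS-IRF element. The peak of Tapbp, which encodes tapasin of the MHC class I loading complex, lay 16 bp upstream of an internal start, that of Cgas 37 bp inside, and that of Gbp5, a guanylate-binding protein, 124 bp upstream of an internal start.

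Transcription factor genes of myeloid cells had new peaks in 10 of 75 (13.3%, 6.58 to 23.2), against 3.71% of all genes. Shared peaks lay at 3 (4%, 0.833 to 11.2, background 1.16%) and EV-only peaks at 6 (8%, 2.99 to 16.6, background 2.84%). The interval of the shared peaks includes their background, and that of the EV-only peaks lay just above theirs. The list averaged 3.41 starts per gene. Elf1, itself an ETS factor, had its peak 3 bp upstream of an internal start, with 1 central ETS site. The peak of Lmo2 was 10 bp upstream of an internal start, in a CpG-rich sequence, and that of Nfkb1 20 bp upstream of an internal start, over coding sequence. Cebpe had a peak 8 bp inside its start without an ETS site and another 924 bp upstream with a PU.1-type site. Id2, Irf2, Irf5, Irf9, Runx1 and Stat6 were the remaining ones. Among the other factor genes named in the study, Spi1, which encodes PU.1, and Lyl1 had promoter PU.1 peaks in both lines, at centres 2 and 41 bp apart between lines, and the nearest PU.1 peak to Cebpa was 5629 bp from its start, so none of these met the definition. The promoter peak of Evi2a, 52 bp from the start, overlapped a CEBPA peak of the PuER line whose centre was 102 bp away.

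Of 74 cell cycle and apoptosis genes, 1 had a shared peak (1.35%), 2 an EV-only peak (2.7%) and 8 a new peak (10.8%, 4.78 to 20.2). Inhibitors of apoptosis, Mcl1 (4 bp upstream of the start, CpG-rich), Birc3 (16 bp inside) and Xiap, and genes that promote it, Bbc3 (229 bp inside), Apaf1 (389 bp inside), Pmaip1 and Casp9, had one, as did the cell cycle factor E2f1. Markers of B cells, T cells and erythroid cells had 2 of 45 (4.44%, 0.543 to 15.1), a share near the background of 3.71%, namely Cd28 and Gata1, the latter with its peak in coding sequence 148 bp inside an internal start. Of 57 genes in an enrichment table of the study, 4 had a shared and 4 an EV-only peak (7.02% each), and 13 had a new peak (22.8%, 12.7 to 35.8). The table's genes were picked on these samples and are not independent evidence. Fes, Ptpn22, Fcgr2b, Cfp, Irf5, Mcl1 and Pmaip1 had a new peak and were also counted on other lists here. Among those with a new peak were Fes, with peaks 25 bp inside and 865 bp upstream of its start, and Irf5, with its peak 24 bp upstream of an internal start.

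The lists of housekeeping genes had new peaks at shares that could not be told apart from the background. No new peak lay at a start of the 84 cytosolic ribosomal protein genes (a count of 0 allows up to 3.57% by 3 counts and 4.3% by the exact limit) or of the 75 respiratory chain genes (4% and 4.8%), and 1 of 39 proteasome genes, Psma6, had one (2.56%, 0.0649 to 13.5). The 3 exact intervals all include the background of 3.71%. EV-only promoter peaks were found at 9 of the 84 ribosomal genes (10.7%), 5 of the 75 respiratory genes (6.67%) and 5 of the 39 proteasome genes (12.8%), against 2.84% over all genes. The exact intervals lay above that background for the ribosomal (5.02 to 19.4) and proteasome genes (4.3 to 27.4) but not for the respiratory genes (2.2 to 14.9).

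Some genes had several new peaks. The 3 peaks of Dennd4b, which encodes a DENN-domain protein, lay 262 bp upstream and 492 bp inside its first start and 41 bp inside an internal one. Those of Fbxl17, which encodes an F-box protein, lay 655 bp upstream of its first start and 25 and 472 bp upstream of an internal one. The nearest EV PU.1 peak was far from all of these, at 183501 to 185133 bp in Dennd4b and 879293 to 887187 bp in Fbxl17. Besides Cebpe, Ciita, Cx3cr1, Fes and Inpp5d, the 38 genes with 2 peaks included Cbl and Grb2, a ubiquitin ligase and an adaptor of receptor tyrosine kinases, Aif1, the macrophage protein Iba1, and Mlkl, the effector of necroptosis, which were named after their values were seen.

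New promoter peaks were seldom isolated from other binding. Within 50 kb of the centre, 84.7% had a CEBPA peak of the EV line, 83.1% one of the PuER line, 78.4% another PuER PU.1 peak and 47% an EV PU.1 peak. Around the 5′ ends of all protein-coding genes the corresponding shares were 63.7%, 59.1%, 50.1% and 30%. The counts are not wholly alike. A gene start has no peak of its own to leave out, and peaks of the other 3 lists may overlap it. By definition no such peak overlaps a new promoter peak. The median distance to the nearest peak was 9147 bp for EV CEBPA, 11783 bp for PuER CEBPA and 58721 bp for EV PU.1. No peak of these 3 lists lay within 50 kb of 84 members (10.4%). CEBPA peaks came close without touching in several named genes. The nearest centre was 484 bp away in Cd300lf (PuER line), 496 bp in Cd28 and 537 bp in Ccl6 (EV line), and in both lines 563 and 556 bp in Tnf, 741 and 759 bp in Mcl1, and 1000 and 960 bp in Nfkb1 (EV and PuER). In C1qa the nearest CEBPA centre was 4354 bp away in the EV line and 119794 bp in the PuER line. A few calls turned on small overlaps, with 15 members less than 100 bp from the edge of a CEBPA peak and 20 promoter peaks left out for an overlap of at most 100 bp. For EV PU.1 these numbers were 6 and 3.

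**Figure D5:**
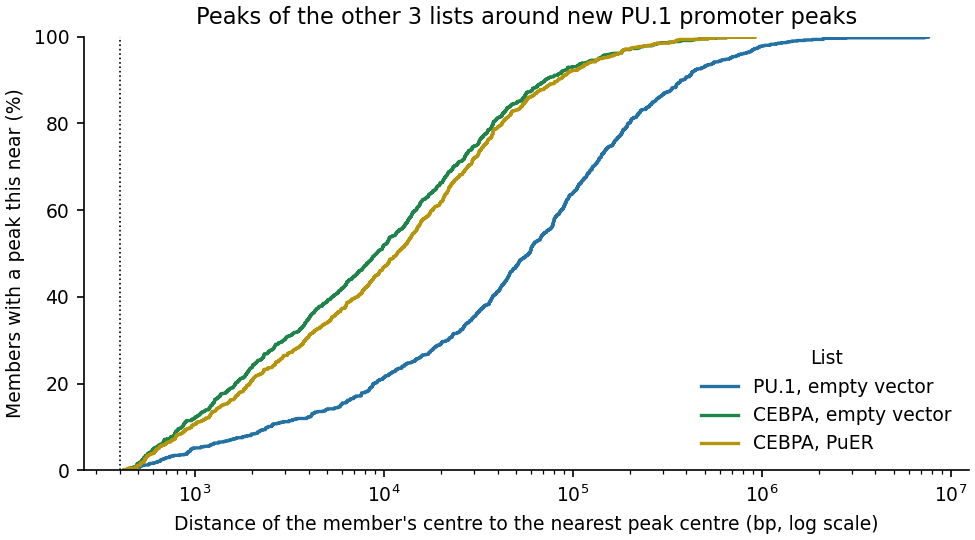
Cumulative share of the 811 new promoter peaks (%, y axis) against distance of their centre to the nearest peak centre of each other list (bp, log scale on the x axis). The dotted line marks 400 bp, below which peaks would overlap and were left out. The CEBPA curves of both lines rise together and well before that of EV PU.1 peaks, whose median distance is 58721 bp.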

How the data were processed

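Chromatin immunoprecipitation sequencing (ChIP-Seq) peak lists for PU.1 and CEBPA in the EV and PuER clones were analysed. Per the labels and the study's methods, alignment to mm10 by the authors used Bowtie2 (2.0.6) and peak calling used MACS2 (2.0.10). The deposited lists give chromosome, start and end only, with every interval 400 bp wide. The calling threshold, the origin of that width and the depth are not given in the sources used here. Peaks were called separately in the 4 libraries.

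An overlap of 1 bp or more made a peak shared, and the resulting set was the same with bedtools (2.31.1). A start was the first base of a protein-coding transcript in GENCODE release M21, and sequence came from the RefSeq copy of GRCm38. Promoter windows were 25 consecutive 80-bp tiles across 1000 bp on either side of the 5′ end of each gene. Intervals of single shares are exact (Clopper-Pearson, scipy 1.17.1), and those of differences are by Newcombe's method, at the 95% level. No p-values were computed, since there was 1 library per antibody and line. Functions were tested on simulated data with planted overlaps and motifs.

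Named genes were the 4 of each list with a member nearest to a start, every gene with 3 or more members, and the genes that the study names at its ChIP-Seq results. The members, gene lists and comparisons were chosen with earlier results of these data known. Of the listed symbols, 3 (Clec7a, Mx2 and Hbb-b1) did not match the annotation. The base counts before sites, the split by CpG content, distance bands, purine runs and internal starts were examined after values were seen. Alternatives covered the overlap, promoter width, start definition, motif window, motif core and CpG thresholds.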

Additional observations from a re-analysis of the deposited data

How the results depend on the processing

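Across the alternatives, 161 differences of shares kept their direction and their side of 0 and 68 counts or shares stayed within 1.5 times (counts) or within the reported interval (shares), while 34 values did not. Within that range the number of members still moved from 811 to 549 (576 genes) with the 5′ end of each gene only and to 1013 (1014 genes) with any transcript of a protein-coding gene. With promoters reaching 500 bp there were 487 members at 494 genes, of which 27.1% were CpG-rich and 58.3% upstream, and with 2500 bp there were 1510 at 1493 genes, with 10.7% and 50.1%. The CpG-rich share was 15.6% with any transcript of a protein-coding gene, 24.4% with the 5′ end of each gene only and 14.1% at thresholds of 55% GC and a ratio of 0.65. Over the central 200 bp and the whole 400 bp, ETS shares were 58.9% and 64.9%, PU.1-type 21.3% and 22.8%, and ETS1-type 11% and 13.4%, as the windows are longer. The excess of ETS sites over EV-only promoter peaks was 6.84 points (1.45 to 12.2) over the central 200 bp. Over the whole peak it was 3.62 points (-1.59 to 8.86), and only there did the interval include 0. The ETS difference from shared promoter peaks turned to 6.11 points with the core GGAA followed by A or T, a different set of sites. New minus EV-only upstream shares excluded 0 with a 200-bp gap around other peaks (-5.61), with 2500-bp promoters (-6.81) and with any transcript (-7.25), and turned positive with the 5′ end only (1.18; against shared, 0.919). Differences whose interval included 0 changed sign as follows. For ETS sites against new peaks away from promoters the values were 0.141 (centres within 100 bp), 0.187 (500-bp promoters) and 0.286 (GGAA followed by A or T). For ETS1-type sites they were 0.407 (500-bp promoters), 0.176 (any transcript), 2.23 (central 200 bp) and 2.68 (whole peak), and the last 2 intervals excluded 0. For PU.1-type sites they were 0.0244 against new peaks away from promoters and 0.414 against shared promoter peaks (2500-bp promoters), and 0.411 against shared ones (central 200 bp). For these changes of sign the cause was not tested. Leaving out peaks with purine runs, an alternative chosen after seeing the data, left 774 members at 784 genes and changed no call.

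No paired analysis was possible because each antibody and clone had 1 library and no result came from a test across samples. Each condition was 1 clone, so clone and PU.1 cannot be told apart. A site counted as new had no call in the EV list, and without heights or depth a weaker EV signal under the caller's threshold was not tested. The EV lists differ in size from the PuER lists (5288 against 15683 PU.1 peaks, 26119 against 20583 CEBPA peaks), and the part of immunoprecipitation efficiency or depth in this was not tested.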

Other observations

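The genes with a new promoter peak were spread over all autosomes and the X chromosome, with none on Y or the mitochondrial genome. Among the autosomes and X, the share of protein-coding genes with one was highest on chromosomes 3 (5.68%) and 1 (5.46%) and lowest on chromosomes 4 (2.49%) and X (2.53%). Sequence marked as repeat in the genome file covered over 50% of the 400 bp in 11 new promoter peaks (1.36%, 0.679 to 2.41) and in 5.56% of new peaks away from promoters (difference -4.2 points, -4.98 to -3.05). Of the new promoter peaks, 63 had another PuER PU.1 peak centred within 1000 bp, 98 a CEBPA peak of the EV line and 86 a CEBPA peak of the PuER line.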
